A study of Mus musculus with 18 samples.

Results

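Genes for collagens, laminins, their cross-linking and cleaving enzymes and other proteins of the extracellular matrix were followed in sorted mouse heart muscle cells. Members were chosen by symbol, not by any measured value. The rule took collagen chains (Col, a number, a, a number), laminin chains (Lama, Lamb and Lamc), symbols that start with Adamts, Timp, Fbln or Lox, matrix metalloproteinases (Mmp and a digit) and 8 single genes. The single genes were Dcn, Lum, Postn, Sparc, Fn1, Bgn, Mgp and Fbn1. It found 68 of the 12048 genes listed in every library. The GENCODE M21 annotation holds 124 symbols of this kind, and the other 56 are not analysed here. The 68 members were 7 fibrillar collagens, 7 basement membrane collagens, 6 other collagens, 9 laminins, 8 single matrix genes, 3 fibulins, 3 lysyl oxidases, 16 Adamts genes, 5 metalloproteinases and 4 Timp genes.

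The extracellular matrix of the heart has a fibrillar part and a basement membrane part. Fibrillar collagens form the fibres between cells and are mainly made by fibroblasts, with small leucine-rich proteoglycans such as decorin bound to them. Each cardiomyocyte is also wrapped in a basement membrane, a sheet of type IV collagen and laminin trimers to which the cell is tied by integrins and dystroglycan. Lysyl oxidases cross-link collagen and elastin, metalloproteinases and Adamts proteases cut matrix proteins, and the Timp proteins inhibit them.

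The cells came from the hearts of Mlc2vcre:R26REYFP mice and were sorted as binucleated (2N) or mononucleated (1N) cardiomyocytes at embryonic stage E18.5, at postnatal day 7 (P7) and in adults. The 6 groups were thus E18.5 2N, E18.5 1N, P7 2N, P7 1N, adult 2N and adult 1N, with 3 libraries each. All groups carried the same alleles and none was treated. Cre is driven from Mlc2v, the ventricular myosin light chain gene Myl2, and switches on a yellow fluorescent reporter at Rosa26, so the label is expected of ventricular muscle cells. How the nuclei were counted in the sort, the strain, the age of the adults and whether replicates came from separate animals are not stated by the labels. P-values therefore measure the spread between these libraries, which may be technical.

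Read counts recovered from the deposited values summed to between 14833334 and 22690952 per library, the lowest being E18.5 2N replicate 1. Levels are given as CPM, the recovered count divided by the library's effective size and scaled to 1000000. The labelled cell type was borne out by 14 measured cardiomyocyte markers, among them Myl2 and Tnnt2, whose summed level was 41290.0 to 52760.0 CPM in E18.5 2N and 53370.0 to 61100.0 CPM in E18.5 1N libraries. At P7 the sums were 65690.0 to 73240.0 CPM in 2N and 55730.0 to 58120.0 CPM in 1N, and in adults 75090.0 to 81100.0 CPM in 2N and 76460.0 to 82580.0 CPM in 1N. None of the 14 passed the test between 2N and 1N at any age. E18.5 2N replicate 1 stood apart: its log2 values departed from the other libraries of its group with an SD of 1.22, where the remaining E18.5 libraries gave 0.687 to 0.839. For comparisons that use it, calls that change without it and folds that move by over 1.5 times are given.

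Changes were tested with limma on the deposited log2 values over all 12048 genes, and a gene was called when its Benjamini-Hochberg adjusted p was below 0.05. A log2 fold change is 2N over 1N, or the later age over the earlier, and ± marks its standard error (SE) with 3 libraries per group. At E18.5, 9 of the 68 members were called higher in 2N than in 1N, against 0.739% of all genes, and 0 were called lower, against 0.0664%. At P7 the calls lay on the other side, with 0 members higher in 2N (0.0664% of all genes) and 7 lower (2.06%). In adults 0 members were called in either direction, against 0.0083% of all genes higher and 0.083% lower. The median log2 fold change of the members was 0.25 at E18.5, −0.56 at P7 and −0.04 in adults, beside −0.01, 0.02 and 0.00 over all genes. The small adult median turns to 0.01 after quantile normalization.

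**Figure D1:**
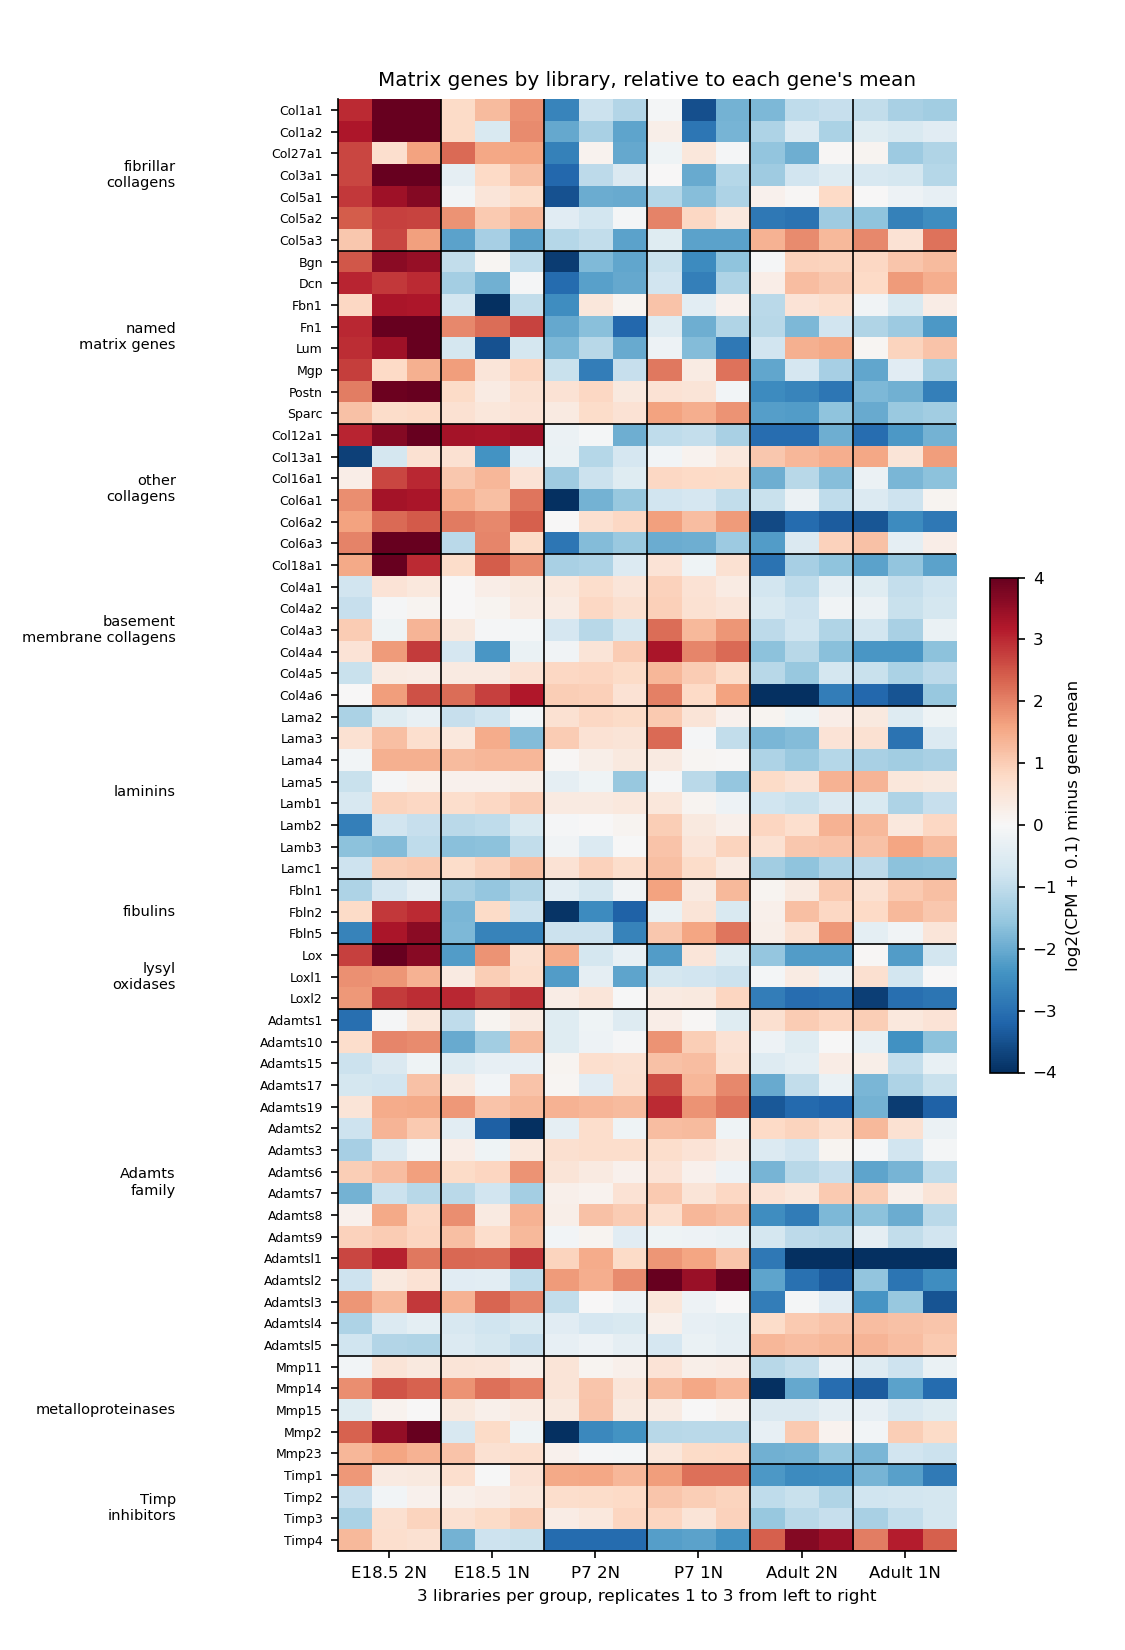
Level of 67 of the 68 members (down) in each of the 18 libraries (across), as log2 of CPM plus 0.1 minus that gene's mean over all libraries, with members grouped by kind. The fibrillar collagens and several single matrix genes are highest in the E18.5 2N libraries, and most basement membrane collagens are lowest in the 6 adult libraries.

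Age changed more members than nuclear number did. In 2N cells, 12 members were called higher and 30 lower at P7 than at E18.5, against 18.2% and 17.7% of all genes. In 1N cells the same comparison gave 14 members higher and 10 lower, against 10.7% and 7.84%. From P7 to the adult, 15 members were called higher and 27 lower in 2N cells (17.3% and 19.7% of all genes), and 9 higher and 35 lower in 1N cells (19.1% and 22.3%). The median change of the members was −1.20 in 2N and −0.13 in 1N for P7 against E18.5, and −0.73 in 2N and −1.07 in 1N for adult against P7, where the medians of all genes lay between −0.03 and 0.03. The 2 classes share no library, but the P7 groups enter both age steps, so the age steps are not independent of each other.

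At E18.5 fibrillar collagens and the small proteoglycans that bind them were among the members called higher in the 2N libraries. Markers of leukocytes and endothelial cells were called higher there too, and several matrix calls rested on single libraries, as given below. Of the fibrillar collagens, 4 of the 7 measured chains, Col1a2, Col3a1, Col5a1 and Col5a3, rose in 2N, and the median log2 fold change of the 7 was 3.27. Col3a1, which encodes the chain of type III collagen, stood at 101, 319 and 338 CPM in E18.5 2N libraries, against 12.1, 27.5 and 36.2 CPM in E18.5 1N libraries. Each 2N library lay above each 1N library, with 2N replicate 1 the lowest of its group (log2 fold change 3.27 ± 0.66, limma adjusted p = 0.0239). Type I collagen, the main fibre of the heart, is built from Col1a1 and Col1a2. The Col1a2 chain had 49.5, 130.5 and 129 CPM in 2N and 8.76, 3.33 and 19.4 CPM in 1N (log2 fold change 3.5 ± 0.7, limma adjusted p = 0.0238). Col1a1 had 30.2, 163 and 151 CPM in 2N and 6.41, 9.06 and 13.5 CPM in 1N, also without overlap, but did not pass the threshold (log2 fold change 3.29 ± 0.79, limma adjusted p = 0.0732). With voom weights on the recovered counts it was called higher (adjusted p = 0.00363).

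Type V collagen, which starts and thins type I fibres, behaved alike in part of its chains. Col5a1 measured 23.6, 34.9 and 42.5 CPM in E18.5 2N, against 3.03, 4.63 and 5.46 CPM in E18.5 1N (log2 fold change 2.94 ± 0.43, limma adjusted p = 0.00272). Its partner Col5a2 gave 17.8, 22.1 and 21.7 CPM in 2N and 11.5, 6.77 and 8.3 CPM in 1N. The groups did not overlap, and the difference was not called as reported (log2 fold change 1.24 ± 0.48, limma adjusted p = 0.286). Voom weights called it higher (1.26, adjusted p = 0.0211). The minor chain Col5a3 was near the detection limit in 1N. It had 115 reads over the 3 2N libraries, against 2 in 1N, a ratio of 61.7 after scaling for library size (95% interval 16.7 to 516, counting error only; log2 fold change 5.34 ± 0.99, limma adjusted p = 0.015). Over the 7 chains the summed level was 227, 674 and 686 CPM in 2N and 44.7, 53.1 and 84.8 CPM in 1N.

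Among the 8 single matrix genes, 4 rose in E18.5 2N cells, and 3 of them were the small leucine-rich proteoglycans decorin, lumican and biglycan. Dcn, which binds collagen fibrils and growth factors, stood at 65.9, 56.8 and 64.2 CPM in 2N, against 3.08, 2.03 and 7.72 CPM in 1N (log2 fold change 4.09 ± 0.52, limma adjusted p = 0.000853). Lum, which regulates fibril spacing, had 12, 16.1 and 24.6 CPM in 2N and 0.854, 0.0382 and 0.858 CPM in 1N (log2 fold change 5.58 ± 0.97, limma adjusted p = 0.0082). Bgn showed 7.64, 16.9 and 15.5 CPM in 2N, against 0.598, 1.38 and 0.587 CPM in 1N (log2 fold change 3.96 ± 0.79, limma adjusted p = 0.0239). In each of these genes the lowest 2N library exceeded the highest 1N library. Postn, a secreted adhesion protein of cardiac fibroblasts and valves, was the fourth, at 38.4, 140.0 and 155 CPM in 2N and 15.6, 11.6 and 14.2 CPM in 1N (log2 fold change 2.78 ± 0.41, limma adjusted p = 0.00289). The lower Postn value of 2N replicate 1 sets the size of this fold: without that library it was 3.42, with an adjusted p of 4.67e-05.

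The other 4 single genes were not called at E18.5. Fn1, fibronectin, had 23.4, 89 and 57.1 CPM in 2N, against 10.8, 13.6 and 18.6 CPM in 1N (log2 fold change 1.81 ± 0.56, limma adjusted p = 0.188). With voom weights Fn1 was called higher (adjusted p = 0.0104). Fbn1, the main protein of microfibrils, had 3.37 CPM in 2N replicate 1 and 18.8 CPM in 2N replicate 2, with replicate 3 just below replicate 2. The 1N libraries had 1.07, 0 and 0.903 CPM (log2 fold change 5.3 ± 1.25, limma adjusted p = 0.0651). In both genes the groups did not overlap. After birth Fbn1 was low in all groups, at 0.252, 2.6 and 2.03 CPM in P7 2N and 4.25, 1.35 and 2.1 CPM in P7 1N. It had no call in any comparison as reported. After quantile normalization it was called higher in 2N at E18.5 (adjusted p = 0.0493) and lower in P7 2N than in E18.5 2N (0.0399). Voom weights on the recovered counts also called that fall (0.0182). In adults it had 0.827, 2.8 and 3.04 CPM in 2N and 1.7, 1.18 and 2.33 CPM in 1N; 20.1% of its exon length overlaps Gm9913. Sparc, a collagen-binding protein, and Mgp, an inhibitor of calcification, had log2 fold changes of 0.38 ± 0.19 (adjusted p = 0.377) and 0.66 ± 0.66 (adjusted p = 0.608). Sparc had 579, 427 and 446 CPM in E18.5 2N and 387, 352 and 369 CPM in E18.5 1N, without overlap. Mgp had 41.8, 10.7 and 16.6 CPM in 2N and 19.6, 8.64 and 11.2 CPM in 1N, and there the classes overlapped.

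One protease completed the 9 calls. Mmp2, gelatinase A, stood at 8.66, 19.2 and 26.9 CPM in E18.5 2N and 0.983, 2.79 and 1.4 CPM in E18.5 1N, again without overlap (log2 fold change 3.38 ± 0.74, limma adjusted p = 0.0391). No member of the basement membrane collagens, laminins, other collagens, fibulins, lysyl oxidases, Adamts genes or Timp genes was called at E18.5 as reported. Fbln2 was called higher with voom weights (adjusted p = 0.0345) and with a replicate block at every age (0.01). The median log2 fold change was −0.15 over 7 basement membrane collagens, −0.44 over 9 laminins and −0.15 over 16 Adamts genes. Fbln5, an elastic fibre protein, had 349 reads over the 2N libraries, all of them in replicates 2 and 3, against 2 reads in 1N (log2 fold change 4.99 ± 1.55, limma adjusted p = 0.193).

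**Figure D2:**
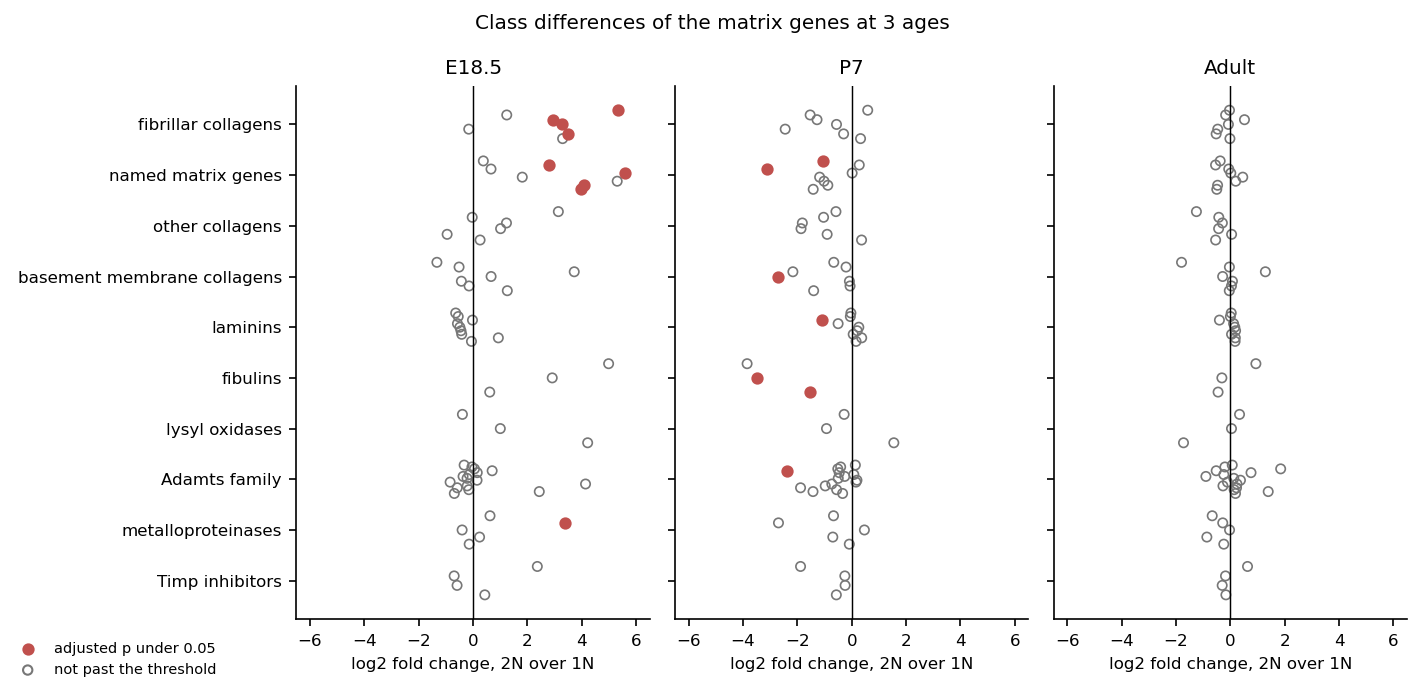
Log2 fold change of 2N over 1N (across) for each of the 68 members, by kind (down), at E18.5, P7 and in adults; filled points passed an adjusted p of 0.05 and open points did not. The 9 filled points at E18.5 all lie to the right of 0, the 7 at P7 all lie to the left, and the adult panel has none.

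The E18.5 calls differed in how far they depended on single libraries. Col5a1, Dcn, Lum and Postn were called whichever library was left out. The others were lost without 1 or more libraries: without 2N replicate 2, the adjusted p was 0.0675 for Bgn, 0.0671 for Col1a2, 0.0698 for Col3a1, 0.0561 for Col5a3 and 0.08 for Mmp2. Leaving out 2N replicate 3 gave 0.0689 for Mmp2. Without 1N replicate 1 it was 0.0947 for Bgn, 0.0668 for Col1a2, 0.122 for Col3a1, 0.0576 for Col5a3 and 0.154 for Mmp2. Without 1N replicate 2 the values were 0.0962 for Col1a2 and 0.0533 for Col3a1. Without 1N replicate 3 they were 0.0852 for Bgn, 0.0512 for Col5a3 and 0.116 for Mmp2. Without 2N replicate 1, the library that stood apart, all 9 were kept and 14 members were called. The 5 added were Col1a1 (adjusted p = 0.0156), Fbln2 (0.0116), Fbln5 (0.00109), Fbn1 (0.037) and the procollagen protease gene Adamts2 (0.0493). With a block for the replicate number at P7 and in adults, the ages where the numbers were taken to pair the libraries, 5 members were called at E18.5. The adjusted p with this block was 0.0846 for Bgn, 0.0796 for Col1a2, 0.106 for Col3a1 and 0.0525 for Mmp2. Fitted on the 6 E18.5 libraries alone, 0 of the 9 were called (adjusted p 0.112 to 0.236).

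Markers of leukocytes and endothelial cells and 1 fibroblast marker were also called higher in E18.5 2N, where 0.739% of all genes were called higher. Of 15 listed fibroblast genes that are not members, 8 were measured. Their summed level was 642 to 649.6 CPM in 2N and 560.0 to 587 CPM in 1N. The median of their log2 fold changes was 1.5, beside −0.01 over all genes. Of the 8, Cygb was called higher (log2 fold change 4.55 ± 0.87, limma adjusted p = 0.0191; 0.0621 without 1N replicate 2). The defining fibroblast gene Pdgfra stood at 4.26, 12.9 and 7.52 CPM in 2N and 0.427, 1.22 and 2.48 CPM in 1N, and Tcf21 is not analysed here. The 16 measured endothelial genes summed to 103 to 195 CPM in 2N and 23.8 to 49.9 CPM in 1N, with 6 called higher, among them Emcn (log2 fold change 3.37) and Cdh5 (3.46). Of 7 measured leukocyte genes 5 were called higher, with sums of 14.6 to 39.7 CPM in 2N and 3.52 to 3.76 CPM in 1N, and Laptm5, C1qb and C1qc were at 0 in every E18.5 1N library. Pdgfrb, a pericyte receptor that fibroblasts also carry, had 1.08, 8.53 and 5.76 CPM in 2N and 0 in all 1N libraries. It was the one call among 10 pericyte and smooth muscle genes, whose sums were 1454 to 1839 CPM in 2N and 1567 to 1678 CPM in 1N. Sums for 7 epicardial genes were 60.6 to 66.8 CPM in 2N and 36.4 to 42.4 CPM in 1N, and for 5 erythroid genes 101 to 177 CPM in 2N and 38.5 to 67.3 CPM in 1N, with 0 calls in either. The 3 endocardial and valve genes summed to 25.6 to 30.4 CPM in 2N and 21.2 to 21.9 CPM in 1N, also with 0 calls. For the 3 Schwann cell genes the sums were 12.9 to 29.6 CPM in 2N and 18.1 to 38 CPM in 1N, again with 0 calls and a median log2 fold change of −0.46. That median was 2.67 for the endothelial, 3.9 for the leukocyte and 0.52 for the pericyte and smooth muscle genes. It was 1.39 for the epicardial, 1.15 for the erythroid and 0.68 for the endocardial and valve genes. The part of these cell types in the matrix differences was not tested. Fewer cells of a type and less RNA per cell cannot be told apart in such bulk libraries.

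**Figure D3:**
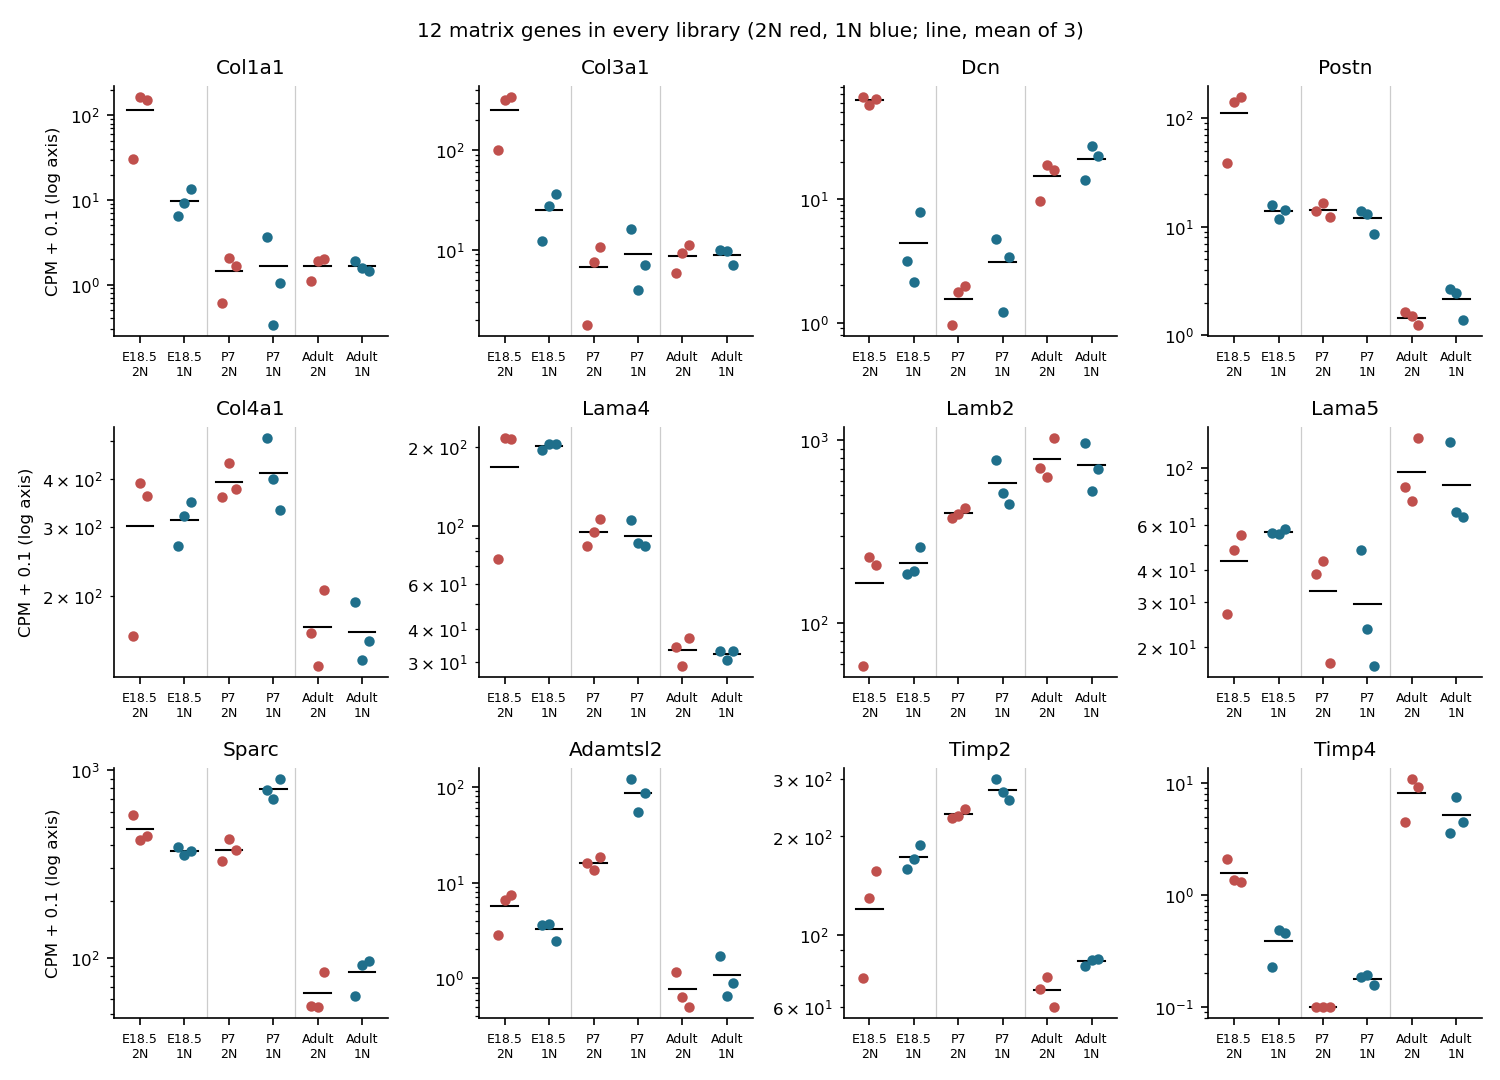
CPM plus 0.1 on a log axis (down) for 12 members in the 18 libraries, with groups across in order of age and 2N left of 1N; points are libraries and bars are group means. Dcn, Col3a1 and Col1a1 are highest in the E18.5 2N libraries, and Sparc is highest in the P7 1N libraries.

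At P7 the 7 called members were lower in 2N than in 1N and belonged to several kinds: Fbln1, Fbln2, Mgp, Sparc, Adamtsl2, Col4a3 and Lamb3. No fibrillar collagen was among them, and the median of the 7 fibrillar chains was −0.56. Sparc was the most abundant of the 68 members per kilobase of exon at this age. Its level was 326, 427 and 376 CPM in P7 2N libraries, against 781, 699.6 and 893 CPM in P7 1N libraries, with no overlap (log2 fold change −1.07 ± 0.19, limma adjusted p = 0.00463). Mgp fell to 3.23, 0.806 and 3.21 CPM in 2N, against 26.9, 7.74 and 28.2 CPM in 1N (log2 fold change −3.13 ± 0.66, limma adjusted p = 0.0178).

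Both fibulins called at P7 are scaffold proteins of elastic fibres and basement membranes. At E18.5 Fbln1 had 17.1, 25.2 and 31.8 CPM in 2N and 15.8, 13.8 and 17.6 CPM in 1N, with no call. At P7 it stood at 30.4, 24.6 and 36.9 CPM in P7 2N and 125, 52.5 and 98.9 CPM in P7 1N (log2 fold change −1.52 ± 0.31, limma adjusted p = 0.0141). Fbln2 had 0.101, 0.434 and 0.225 CPM in 2N, against 2.43, 4.24 and 1.92 CPM in 1N (log2 fold change −3.47 ± 0.67, limma adjusted p = 0.00927). The P7 1N libraries lay above the P7 2N libraries in both genes, and 1N replicate 2 was the lowest of its group for Fbln1 and the highest for Fbln2. Adamtsl2 encodes a protein without protease activity that binds microfibrils and has been tied to latent TGF-beta. It had 16.1, 13.5 and 18.4 CPM in P7 2N and 119.8, 54.1 and 85.3 CPM in P7 1N (log2 fold change −2.37 ± 0.46, limma adjusted p = 0.00879).

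Col4a3, a chain of the type IV collagen trimer best known from kidney and lung basement membranes, had 0.807, 0.558 and 0.789 CPM in P7 2N, against 6.64, 3.45 and 4.77 CPM in P7 1N (log2 fold change −2.7 ± 0.45, limma adjusted p = 0.00265). Its trimer partner Col4a4 gave 0.353, 0.62 and 0.901 CPM in 2N and 4.73, 1.82 and 2.33 CPM in 1N and was not called (log2 fold change −2.16 ± 0.97, limma adjusted p = 0.446). Lamb3, a laminin chain of epithelial basement membranes, had 13.3, 9.99 and 14.5 CPM in 2N and 32.4, 20.3 and 27.4 CPM in 1N (log2 fold change −1.07 ± 0.26, limma adjusted p = 0.0395). In all 3 genes the P7 2N libraries were below the P7 1N libraries. Mmp2 (log2 fold change −2.69 ± 0.74) and Col6a2 (−1.03 ± 0.28) did not pass, with adjusted p of 0.0758 and 0.0739.

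Col4a3 and Sparc were called at P7 whichever library was left out. Without P7 2N replicate 1 the adjusted p was 0.0531 for Fbln1, 0.0599 for Fbln2 and 0.0999 for Lamb3. Dropping 2N replicate 2 gave 0.0551 for Adamtsl2, 0.086 for Fbln1, 0.194 for Lamb3 and 0.106 for Mgp. Dropping 2N replicate 3 gave 0.065 for Lamb3. Without 1N replicate 1 the values were 0.063 for Adamtsl2, 0.0911 for Fbln1, 0.194 for Lamb3 and 0.0958 for Mgp. Without 1N replicate 2, Fbln2 had 0.0602. Without 1N replicate 3, Fbln1 had 0.086, Lamb3 0.161 and Mgp 0.113. In total 3 to 11 members were called at P7 when 1 library was left out, the 11 without E18.5 2N replicate 1.

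Fibroblast genes summed to 77.1 to 87 CPM in P7 2N and 148 to 203 CPM in P7 1N libraries, with Fstl1 called lower (log2 fold change −1.47 ± 0.27, limma adjusted p = 0.00594). Leukocyte genes summed to 2.54 to 5.24 CPM in 2N and 15.3 to 26.4 CPM in 1N, and Lyz2 was called lower (log2 fold change −2.83). C1qc was at 0 in every P7 2N library, and Laptm5 and C1qb were at 0 in every P7 1N library. The median log2 fold change over the 7 measured leukocyte genes was 0.43, the opposite sign to the sum. Endothelial genes summed to 21.2 to 22.5 CPM in 2N and 23.1 to 41.9 CPM in 1N, with 0 of 16 called. The part of these cells in the P7 differences was not tested.

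The change of the class difference between the 2 ages was tested directly, as the 2N over 1N log2 difference at P7 minus that at E18.5. For 17 members it was called below 0, against 2.1% of all genes, and for 0 it was called above 0, against 0.232%. Of the 8 single matrix genes 6 were called (Bgn, Dcn, Lum, Mgp, Postn and Sparc), of the 7 fibrillar collagens 3 (Col3a1, Col5a1 and Col5a2), of the 3 fibulins 3, and of the 7 basement membrane collagens 2 (Col4a3 and Col4a4). Adamtsl2, Mmp2 and Timp4 made up the rest. Mmp2 had 0, 0.186 and 0.225 CPM in P7 2N and 0.695, 0.699 and 0.698 CPM in P7 1N, the reverse order of its E18.5 levels. The difference of its 2 log2 fold changes was −6.07 ± 1.04 (adjusted p = 0.00552). For Dcn, at 0.858, 1.68 and 1.86 CPM in P7 2N and 4.6, 1.12 and 3.32 CPM in P7 1N, it was −4.97 ± 0.73 (adjusted p = 0.00222). For Fbln2, whose E18.5 levels were 5.16, 21.7 and 24.3 CPM in 2N and 0.769, 5.05 and 1.58 CPM in 1N, it was −6.39 ± 0.95 (adjusted p = 0.00224). In the same test 6 of 16 endothelial, 3 of 7 leukocyte and 2 of 8 fibroblast genes were called below 0, and their part was not tested.

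Timp4, Col4a3, Col5a1, Fbln2, Mmp2, Dcn and Sparc kept this call whichever of the 12 E18.5 and P7 libraries was left out. Adamtsl2 lost it without P7 1N replicate 1 (adjusted p = 0.0577), P7 1N replicate 3 (0.0518) or P7 2N replicate 2 (0.0548). Bgn lost it without P7 1N replicate 1 (0.0515), and Fbln1 without P7 1N replicate 3 (0.0526) or P7 2N replicate 2 (0.0547). The other 7 rested on more libraries. Col3a1 kept the call only without E18.5 1N replicate 3, E18.5 2N replicate 1, P7 1N replicate 2 or P7 2N replicate 3, and its highest adjusted p was 0.11. Col4a4 kept it only without 1 of the E18.5 1N libraries or E18.5 2N replicate 1 (highest 0.091). Lum kept it only without E18.5 1N replicate 1 or 3, E18.5 2N replicate 1 or P7 1N replicate 3 (highest 0.117). Col5a2 and Postn kept it only without E18.5 2N replicate 1 or P7 1N replicate 3 (highest 0.113 for Col5a2 and 0.0887 for Postn). Mgp kept it only without E18.5 2N replicate 2 or P7 1N replicate 2 (highest 0.129), and Fbln5 only without E18.5 2N replicate 1 (highest 0.118). The count was 24 without E18.5 2N replicate 1 and 8 without P7 1N replicate 1. Without E18.5 2N replicate 1, Adamts10, Adamts2, Col18a1, Col1a2, Fbn1, Fn1, Col16a1 and Col6a1 were added (adjusted p 0.00996 to 0.0453). The difference then moved to −11.4 for Fbln5, −7.1 for Fbln2, −6.48 for Col4a4 and −3.15 for Postn. With the replicate block at P7 and in adults, 11 were called. The adjusted p with this block was 0.112 for Col3a1, 0.1 for Col4a4, 0.0705 for Col5a2, 0.123 for Fbln5, 0.0698 for Lum and 0.0746 for Postn.

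Between adult 2N and adult 1N cells no member passed the threshold, and 3 of 68 had an unadjusted p below 0.05. The 3 were Col4a6, Mmp23 and Adamtsl3, with log2 fold changes of −1.8 ± 0.79, −0.67 ± 0.31 and 1.85 ± 0.87; they are named after their values were seen. Single fold changes ran from −1.80 to 1.85. Dcn had 9.51, 18.8 and 17.1 CPM in adult 2N and 14, 26.5 and 21.9 CPM in adult 1N, and Lamb2 had 707, 629 and 1024 CPM in 2N and 971, 526 and 693 CPM in 1N, with overlapping groups in both. In each of the 3 same-numbered pairs Dcn was lower in 2N, and 0 members were called with the replicate block at P7 and in adults. The change of the class difference from P7 to the adult was called for 0 members, against 0.208% of all genes above 0 and 0% below. For this change 13 members had an unadjusted p below 0.05. The share of all genes at that unadjusted threshold was not computed. Neither this count nor the 3 above is therefore read as a result. With a replicate block across all ages 1 was called, Mgp (3.07 ± 0.94 in the fit without a block, adjusted p = 0.00864 with it). Voom weights on the recovered counts gave 0 calls for both.

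**Figure D4:**
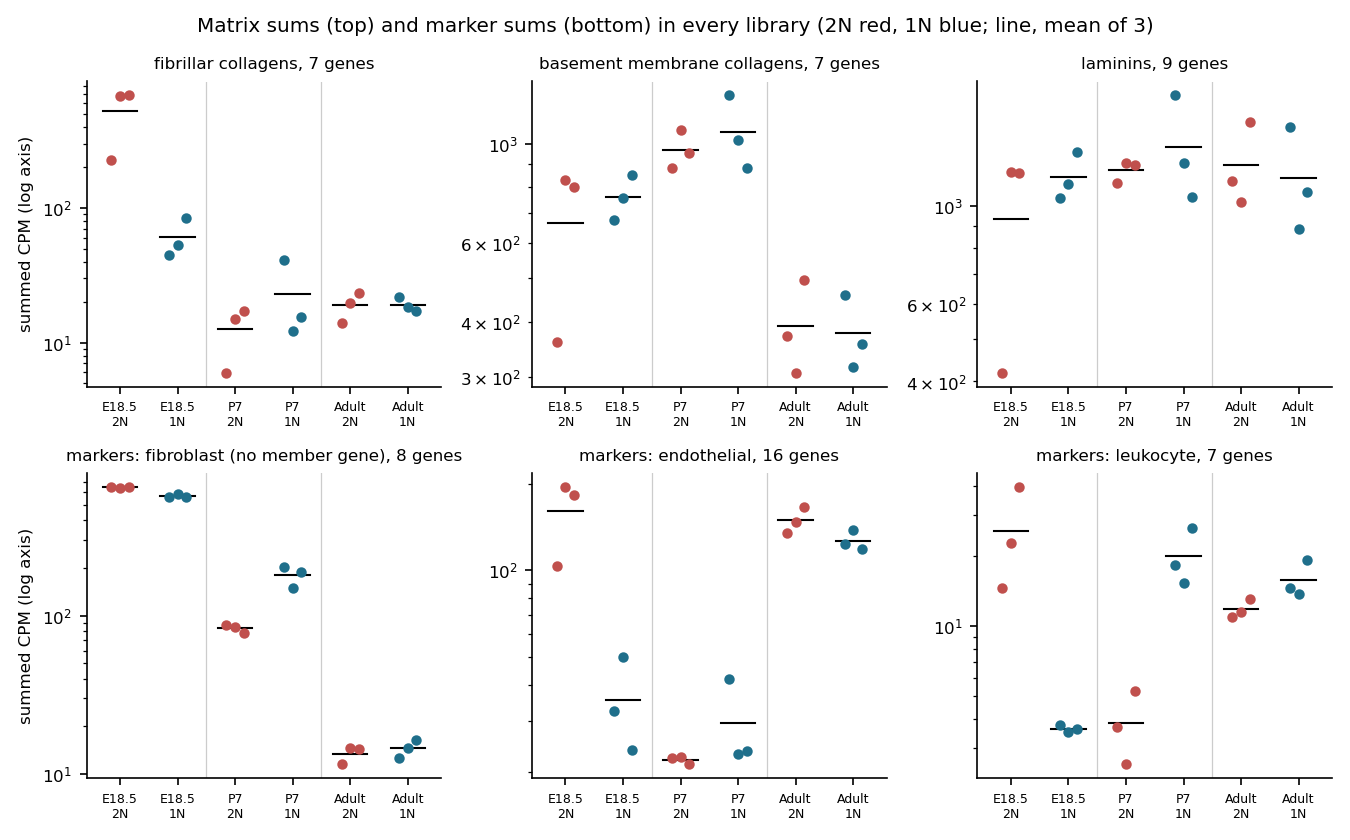
Summed CPM (down, log axis) in the 18 libraries, with groups across in order of age and 2N left of 1N. The top row shows members: fibrillar collagens, basement membrane collagens and laminins. The bottom row shows marker genes of fibroblasts, endothelial cells and leukocytes, which are not members. Fibrillar collagens are highest in the 3 E18.5 2N libraries, and basement membrane collagens are lower in the adult libraries than at P7.

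The fibrillar collagens and proteoglycans of 2N cells were lower at P7 than at E18.5. All 7 fibrillar chains fell in 2N (median −5.43), against 3 of 7 in 1N (median −1.79). Of all genes, 17.7% were called lower in 2N and 7.84% in 1N. Col1a1 had 0.505, 1.99 and 1.58 CPM in P7 2N, against 30.2, 163 and 151 CPM in E18.5 2N (log2 fold change −6.24 ± 0.79, limma adjusted p = 1.95e-05). In 1N it had 3.52, 0.233 and 0.931 CPM at P7 and 6.41, 9.06 and 13.5 CPM at E18.5 (log2 fold change −3.27 ± 0.79, limma adjusted p = 0.00795). Col1a2 fell in 2N (−6.05, adjusted p = 7.04e-06) and in 1N (−2.25, adjusted p = 0.032). The 1N call was lost without E18.5 1N replicate 1 (adjusted p = 0.0806), E18.5 1N replicate 3 (0.16), P7 1N replicate 2 (0.172) or P7 1N replicate 3 (0.105). Col5a1 fell in 2N (−6.0 ± 0.43, adjusted p = 4.05e-08) and in 1N (−1.79 ± 0.43, adjusted p = 0.00754). Col5a2 fell in 2N (−3.08 ± 0.48, adjusted p = 0.000131), with 2.32, 1.92 and 3.04 CPM in P7 2N and 13, 5.87 and 4.36 CPM in P7 1N. Fn1 had 0.606, 0.806 and 0.225 CPM in P7 2N and 1.91, 0.652 and 1.16 CPM in P7 1N, a fall in 2N (−6.59, adjusted p = 2.6e-07) and in 1N (−3.6, adjusted p = 0.000235).

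Markers of other cell types fell with them. In 2N between E18.5 and P7, 8 of 8 fibroblast genes fell (median −3.49), 15 of 16 endothelial (−3.13), 6 of 7 leukocyte (−3.12), 8 of 10 pericyte and smooth muscle (−2.34) and 5 of 7 epicardial genes (−5.93). In 1N the falls were 3 of 8 fibroblast, 1 of 16 endothelial, 0 of 7 leukocyte, 3 of 10 pericyte and smooth muscle and 3 of 7 epicardial genes. The shares of all genes called lower were 17.7% in 2N and 7.84% in 1N. The part of these cells in the falls was not tested. Without E18.5 2N replicate 1 the 2N fall was −7.03 for Col1a1, −7.34 for Col6a3, −3.95 for Col16a1, −4.75 for Col18a1, −6.55 for Fbln2 and −3.39 for Postn (−2.74 with it). Falls of Fbn1 (−4.03, adjusted p = 0.0251), Fbln5 (−5.71, adjusted p = 0.000233), Lamb1 (−0.47, adjusted p = 0.0417), Adamts10 (−2.24, adjusted p = 0.0468) and Lama4 were then added. A rise of Timp1 (1.08, adjusted p = 0.00849) was added too.

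Between P7 and the adult the 3 proteoglycans rose in both classes, whereas the type I and type III collagens had no call. Dcn rose between P7 and the adult in 2N (3.36 ± 0.52, adjusted p = 8.06e-05) and in 1N (2.95 ± 0.52, adjusted p = 0.000232). Bgn had 1.24, 2.53 and 2.47 CPM in adult 2N and 2.36, 2.9 and 3.25 CPM in adult 1N, against 0, 0.31 and 0.225 CPM in P7 2N and 0.651, 0.14 and 0.349 CPM in P7 1N. Its rise was 3.96 ± 0.79 in 2N (adjusted p = 0.000881) and 3.04 ± 0.79 in 1N (adjusted p = 0.00557). Col5a1 had 3.66, 3.4 and 5.74 CPM in adult 2N and 3.29, 2.83 and 2.57 CPM in adult 1N, against 0.202, 0.744 and 0.733 CPM in P7 2N and 1.43, 0.932 and 1.34 CPM in P7 1N. It rose in 2N (3.03 ± 0.43, adjusted p = 3.53e-05) and in 1N (1.24 ± 0.43, adjusted p = 0.0295). The 1N call was lost without adult 1N replicate 1 (0.0852) or 2 (0.0618) or P7 1N replicate 2 (0.108) or 3 (0.0514). Col5a3 also rose in both classes (3.87 in 2N and 4.49 in 1N). Col5a2 instead fell, to 0.354, 0.333 and 1.15 CPM in adult 2N and 0.988, 0.415 and 0.49 CPM in adult 1N (log2 fold change −2.14 ± 0.48 in 2N and −3.49 ± 0.48 in 1N, adjusted p 0.00211 and 2.11e-05). Fn1 had 1.24, 0.733 and 1.61 CPM in adult 2N and 1.15, 0.968 and 0.49 CPM in adult 1N and was not called against P7. Col1a1 was at 1.0, 1.8 and 1.9 CPM in adult 2N and 1.81, 1.45 and 1.35 CPM in adult 1N. Col3a1 was at 5.73, 9.13 and 11 CPM in adult 2N and 9.93, 9.61 and 6.98 CPM in adult 1N, and neither was called against P7. Lum was called higher in both classes (2.55 in 2N, adjusted p = 0.0485, and 2.55 in 1N, adjusted p = 0.0443). The 2N call was lost without adult 2N replicate 2 (0.149) or 3 (0.156) or any P7 2N library (0.0623 to 0.126). The 1N call was lost without any adult 1N library (0.0539 to 0.122) or P7 1N replicate 2 (0.0966) or 3 (0.199).

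Sparc and Postn fell in both classes between P7 and the adult, and Mgp fell in 1N. Mgp had 1.36, 3.8 and 2.35 CPM in adult 2N and 1.37, 4.42 and 2.27 CPM in adult 1N (−2.89 ± 0.66 in 1N, adjusted p = 0.00227). Sparc had 55.3, 54.5 and 84 CPM in adult 2N and 62.6, 91.6 and 96 CPM in adult 1N, a fall against P7 in 2N (−2.56, adjusted p = 3.33e-08) and in 1N (−3.26, adjusted p = 2e-09). Before that, Sparc had risen between E18.5 and P7 in 1N (1.09 ± 0.19, adjusted p = 0.000643), while the 2N change was not called (−0.36 ± 0.19). Postn had 1.54, 1.4 and 1.15 CPM in adult 2N and 2.58, 2.35 and 1.29 CPM in adult 1N, against 13.8, 16.4 and 12.2 CPM in P7 2N and 13.8, 13.1 and 8.55 CPM in P7 1N. The fall to the adult was −3.35 ± 0.41 in 2N (adjusted p = 9.22e-06) and −2.53 ± 0.41 in 1N (adjusted p = 0.000127). Fibroblast marker sums were 11.5 to 14.5 CPM in adult 2N and 12.5 to 16.5 CPM in adult 1N, below those of P7. Endothelial sums were 135 to 166 CPM in adult 2N and 119 to 138 CPM in adult 1N, above those of P7. Of the 8 fibroblast genes, however, 2 were called higher in each class, beside 3 lower in 2N and 4 lower in 1N. Of all genes, 17.3% were called higher and 19.7% lower in 2N, and 19.1% and 22.3% in 1N. The 7 leukocyte genes summed to 11 to 13.2 CPM in adult 2N and 13.7 to 19.4 CPM in adult 1N, with 4 called higher in 2N (median 2.4) and 5 in 1N (median 4.76). The part of these cells in the age differences was not tested.

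Type IV collagen forms the network of the basement membrane, and its genes lie head to head in pairs that share a promoter region. The 300-base windows around the RefSeq start sites of 2 pairs (GRCm38.p6, from 250 bases before to 50 after the start) are shown because all 4 genes fell between P7 and the adult in both classes. For Col4a1 and Col4a2, whose starts lie 21 bases apart, capitals mark the 78 bases that both windows hold on opposite strands. For Col4a5 and Col4a6, whose starts lie 1343 bases apart, capitals mark a GC box. Each is written 5′ to 3′ on the strand of its gene: chr8:11312777-11313076, minus strand, for Col4a1; chr8:11312555-11312854, plus strand, for Col4a2; chrX:141475169-141475468, plus strand, for Col4a5; and chrX:141474027-141474326, minus strand, for Col4a6.
Col4a1: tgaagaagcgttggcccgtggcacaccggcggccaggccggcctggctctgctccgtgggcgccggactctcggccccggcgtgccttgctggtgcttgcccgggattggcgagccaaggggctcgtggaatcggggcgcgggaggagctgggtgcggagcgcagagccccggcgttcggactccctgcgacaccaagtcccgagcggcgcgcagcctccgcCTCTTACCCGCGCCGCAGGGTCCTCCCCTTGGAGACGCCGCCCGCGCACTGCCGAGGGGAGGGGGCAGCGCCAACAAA
Col4a2: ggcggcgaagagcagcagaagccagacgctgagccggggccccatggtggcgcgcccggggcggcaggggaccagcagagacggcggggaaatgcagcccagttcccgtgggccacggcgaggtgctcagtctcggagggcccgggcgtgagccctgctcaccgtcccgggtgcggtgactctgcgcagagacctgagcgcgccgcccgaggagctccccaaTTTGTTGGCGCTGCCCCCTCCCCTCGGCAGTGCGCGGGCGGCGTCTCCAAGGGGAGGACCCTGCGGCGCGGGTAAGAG
Col4a5: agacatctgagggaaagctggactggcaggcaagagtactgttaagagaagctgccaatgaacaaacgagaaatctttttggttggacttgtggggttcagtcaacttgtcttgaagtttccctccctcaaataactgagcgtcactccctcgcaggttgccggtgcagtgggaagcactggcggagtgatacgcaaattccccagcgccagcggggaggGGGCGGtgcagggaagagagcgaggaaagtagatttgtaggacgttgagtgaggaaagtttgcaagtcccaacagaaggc
Col4a6: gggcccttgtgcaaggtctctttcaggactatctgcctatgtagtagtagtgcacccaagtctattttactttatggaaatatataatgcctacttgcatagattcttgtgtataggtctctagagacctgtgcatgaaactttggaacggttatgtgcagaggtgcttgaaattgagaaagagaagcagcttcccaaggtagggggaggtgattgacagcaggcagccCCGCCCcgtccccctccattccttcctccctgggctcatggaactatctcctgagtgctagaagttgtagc
The windows of 45 of the 68 members were found in this table, and that of Col4a3 is not among them. The GC box (GGGCGG, or CCGCCC on the other strand) occurred 1 time in Col4a1, 3 times in Col4a2, 1 time in Col4a5 and 1 time in Col4a6; 35.7% of all 32851 windows of this length hold it. The CCAAT box (CCAAT or ATTGG, 37.4% of windows) occurred once in Col4a1, Col4a2 and Col4a5 and was not matched in Col4a6. The TATA box (TATAAA or TTTATA, 13.6% of windows) was matched in none of the 4. G and C made up 74% of the Col4a1 window, 73.7% of Col4a2, 52.7% of Col4a5 and 48.3% of Col4a6.

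Col4a1 and Col4a2, the 2 chains of the trimer found in nearly all basement membranes, kept close to each other in every library. Per kilobase of exon, the level of Col4a2 was 0.65 to 1.16 times that of Col4a1 across the 18 libraries. Col4a1 stood at 157, 390.5 and 361 CPM in E18.5 2N and 268, 321 and 349 CPM in E18.5 1N, at 359.9, 438 and 377 CPM in P7 2N and 508, 398 and 333 CPM in P7 1N. The adult levels were 161, 132 and 207 CPM in 2N and 193, 137 and 153 CPM in 1N. The adult libraries were all below the P7 libraries, and the classes overlapped at each age. Against P7 it fell in adult 2N (−1.25 ± 0.28, adjusted p = 0.00186) and in adult 1N (−1.35 ± 0.28, adjusted p = 0.000876). Col4a2 had 125, 225 and 254 CPM in E18.5 2N and 235, 253 and 292 CPM in E18.5 1N, 297, 412 and 362 CPM in P7 2N and 449, 360.2 and 327 CPM in P7 1N. In adults it had 153, 130.4 and 212 CPM in 2N and 199, 127 and 143 CPM in 1N. It fell between P7 and the adult in 2N (−1.13, adjusted p = 0.00184) and in 1N (−1.29, adjusted p = 0.000541). Before that it had risen between E18.5 and P7 in 2N (0.88 ± 0.25, adjusted p = 0.0118; 0.0509 without P7 2N replicate 2).

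Between P7 and the adult 7 of 7 basement membrane collagens fell in 1N (median −2.40) and 4 of 7 in 2N (median −1.25). Of all genes, 22.3% were called lower in 1N and 19.7% in 2N. Col4a5 assembles with Col4a6 in smooth muscle basement membranes or with Col4a3 and Col4a4. It had 56.7, 42.8 and 74.7 CPM in adult 2N and 65.2, 50.8 and 58.8 CPM in adult 1N, against 219, 219.7 and 207 CPM in P7 2N and 303, 247 and 204 CPM in P7 1N. The fall was −1.93 ± 0.27 in 2N (adjusted p = 2.72e-05) and −2.1 ± 0.27 in 1N (adjusted p = 9.13e-06). Col4a6 was close to absent in adults, with 0, 0 and 0.172 CPM in adult 2N and 0.11, 0.0691 and 0.551 CPM in adult 1N, against 3.53, 3.47 and 2.65 CPM in P7 2N and 7.42, 3.12 and 5.58 CPM in P7 1N. Over the 2N libraries that was 3 reads in adults, against 173 at P7, 53.0 times more at P7 after scaling (95% interval 17.8 to 260, counting error only; adjusted p = 2.38e-05). The 1N fall was −4.65 ± 0.79 (adjusted p = 0.000166). At E18.5 Col4a6 stood at 1.78, 5.78 and 10.6 CPM in 2N and 8.54, 12.2 and 17.1 CPM in 1N. Col4a5 stood at 65.5, 153 and 149 CPM in E18.5 2N and 156, 156 and 180.2 CPM in E18.5 1N, and the classes overlapped for Col4a6 and not for Col4a5, which was not called (log2 fold change −0.52 ± 0.27, limma adjusted p = 0.388).

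Col4a3 and Col4a4 had their highest means in P7 1N. Beside the P7 values above, Col4a3 had 2.8, 1.18 and 3.58 CPM in E18.5 2N and 1.79, 1.3 and 1.26 CPM in E18.5 1N. In adults it had 0.591, 0.733 and 0.517 CPM in 2N and 0.768, 0.484 and 1.1 CPM in 1N. These values were all below its lowest P7 1N library except one E18.5 2N library. It rose between E18.5 and P7 in 1N (1.72 ± 0.45, adjusted p = 0.012; 0.063 without P7 1N replicate 1) and fell in 2N (−1.64 ± 0.45, adjusted p = 0.00942). In adult 1N it then fell against P7 (−2.63 ± 0.45, adjusted p = 0.000175). Col4a4 rose in 1N between E18.5 and P7 (4.58 ± 0.97, adjusted p = 0.00314). Its levels were 0.636, 1.53 and 3.35 CPM in E18.5 2N and 0.214, 0 and 0.316 CPM in E18.5 1N, so that E18.5 2N overlapped P7 1N. It had 1 read over the 3 adult 1N libraries against 188 in P7 1N. Col18a1, whose product releases endostatin, had 7.38, 50.5 and 20.6 CPM in E18.5 2N and 4.23, 13.7 and 9.61 CPM in E18.5 1N. It fell in 2N between E18.5 and P7 (−4.04 ± 0.63, adjusted p = 0.00014) and in 1N between P7 and the adult (−2.4 ± 0.63, adjusted p = 0.00582). The sums over the 7 basement membrane collagens were 371, 307 and 495 CPM in adult 2N and 458, 316 and 357 CPM in adult 1N. At P7 they were 881, 1075 and 952 CPM in 2N and 1282, 1017 and 880.0 CPM in 1N, all above the adult sums.

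Laminins are trimers of an alpha, a beta and a gamma chain, and the chains changed their proportions with age. Among the alpha chains, Lama4, typical of vascular and embryonic laminins, stood at 74.5, 216 and 215 CPM in E18.5 2N and 196, 205 and 205 CPM in E18.5 1N. At P7 it had 83.8, 94.5 and 106 CPM in 2N and 105, 85.8 and 83.7 CPM in 1N. Adult libraries had 34.1, 28.9 and 36.9 CPM in 2N and 33, 30.5 and 32.9 CPM in 1N. Between E18.5 and P7 it fell in 1N (−1.15 ± 0.28, adjusted p = 0.00852), and in 2N its change was −0.68 ± 0.28 (adjusted p = 0.0709). The 2N fall was called without E18.5 2N replicate 1 (−1.19, adjusted p = 2.02e-06) and after quantile normalization (−0.87, adjusted p = 0.0316). It also fell between P7 and the adult in 2N (−1.51 ± 0.28, adjusted p = 0.000471) and 1N (−1.5 ± 0.28, adjusted p = 0.000441). Lama2, the alpha chain of the muscle laminin that binds dystroglycan, rose between E18.5 and P7 in 2N (1.41 ± 0.29, adjusted p = 0.00125) and in 1N (1.19 ± 0.29, adjusted p = 0.00778). Its levels were 46.7, 80.0 and 91.5 CPM in E18.5 2N and 58.6, 63.4 and 104 CPM in E18.5 1N, and 170.4, 198 and 189 CPM in P7 2N and 229.5, 158 and 126 CPM in P7 1N. In adults Lama2 had 121, 99.4 and 134 CPM in 2N and 145, 78.1 and 98.6 CPM in 1N, with no call against P7 as reported. Its fall was called in both classes without E18.5 2N replicate 1 (adjusted p 0.0336 in 2N and 0.0286 in 1N). The same held after quantile normalization (0.0431 in 2N and 0.0264 in 1N). With only the groups compared, the 2N fall was called (0.00273). The 1N fall was also called without P7 1N replicate 3 (0.0396) or adult 1N replicate 1 (0.0262). Lama5 rose later, to 84.1, 74.3 and 130.5 CPM in adult 2N and 126, 67.2 and 64.5 CPM in adult 1N, against 38.5, 43.4 and 17.2 CPM in P7 2N and 47.7, 23.5 and 16.8 CPM in P7 1N. The rise was 1.61 ± 0.41 in 2N (adjusted p = 0.00501) and 1.62 ± 0.41 in 1N (adjusted p = 0.00422).

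Lamb2 became the most abundant member per kilobase of exon in adults, at 129 ± 34.4 CPM per kb in adult 2N and 120.1 ± 36.9 CPM per kb in adult 1N (SD, n = 3). Its CPM were 58.4, 231 and 209 in E18.5 2N and 185, 194 and 259.8 in E18.5 1N, 378, 396 and 426 in P7 2N and 784, 513 and 448 in P7 1N. The adult levels were 707, 629 and 1024 CPM in 2N and 971, 526 and 693 CPM in 1N. Between P7 and the adult Lamb2 was not called in either class as reported, and the 1N libraries of these ages overlapped. Its 2N change of 0.95 was called without E18.5 2N replicate 1 (adjusted p = 0.0029) and with only the groups compared (0.00251). The rise between E18.5 and P7 was 1.5 ± 0.39 in 2N (adjusted p = 0.00756) and 1.43 ± 0.39 in 1N (adjusted p = 0.0175). Without E18.5 2N replicate 1 the 2N rise was 0.86 (adjusted p = 0.0137). In 1N the call was lost without E18.5 1N replicate 1 (0.0614), E18.5 1N replicate 2 (0.0616) or P7 1N replicate 1 (0.0878). Lamb1, the beta chain of embryonic laminins, instead had 97.1, 90.4 and 112 CPM in adult 2N and 110.0, 71.5 and 89.1 CPM in adult 1N, against 217, 216 and 228 CPM in P7 2N and 231, 183 and 146 CPM in P7 1N. It fell in 2N (−1.14, adjusted p = 0.00611) and in 1N (−1.05, adjusted p = 0.00952; 0.0503 without P7 1N replicate 1). Lamc1, the gamma chain of most laminins, fell to 52.2, 44.9 and 57.9 CPM in adult 2N and 67, 44.6 and 45.2 CPM in adult 1N, against 205, 258 and 223 CPM in P7 2N and 320.4, 231 and 177 CPM in P7 1N. The log2 fold change was −2.15 ± 0.36 in 2N (adjusted p = 0.000204) and −2.2 ± 0.36 in 1N (adjusted p = 0.000139).

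**Figure D5:**
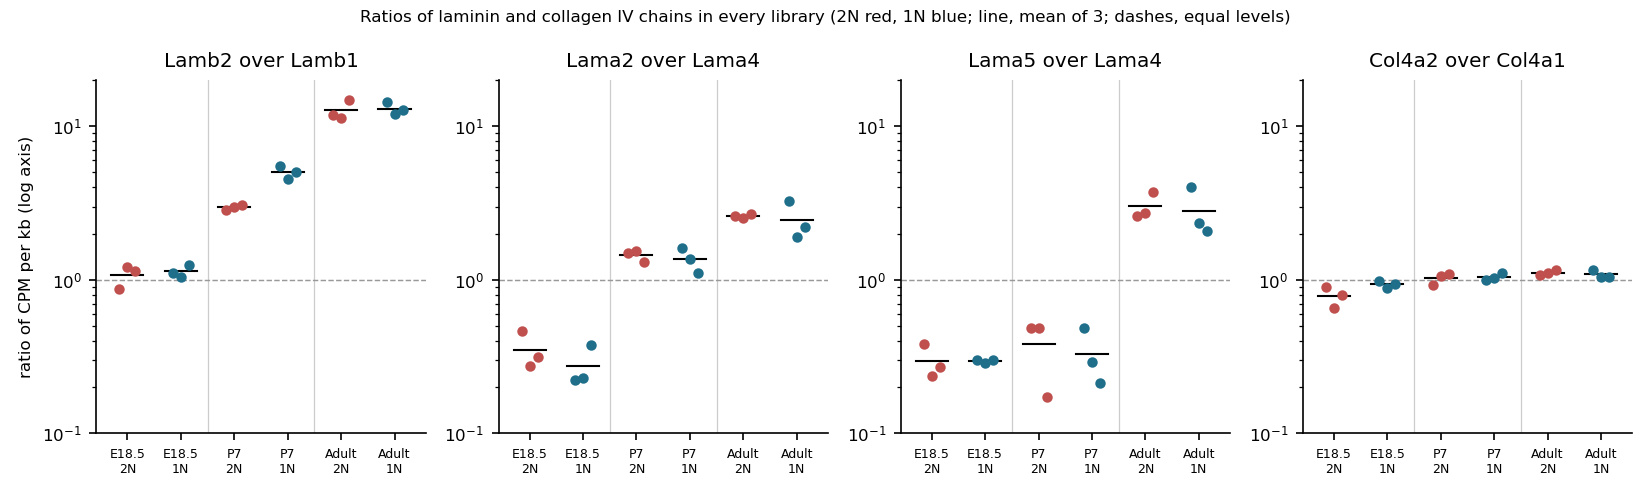
Ratios of chain levels per kilobase of exon (down, log axis) in the 18 libraries, with groups across in order of age and 2N left of 1N. Lamb2 over Lamb1 lies between 0.875 and 1.25 in the E18.5 libraries and between 11.3 and 14.9 in the adult libraries.

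Ratios within a library do not depend on its scaling. The ratio of Lamb2 to Lamb1, both per kilobase of exon, averaged 1.07 ± 0.175 in E18.5 2N and 1.13 ± 0.104 in E18.5 1N (SD, n = 3). It averaged 2.96 ± 0.106 in P7 2N and 5.03 ± 0.485 in P7 1N, and 12.7 ± 1.9 in adult 2N and 13 ± 1.23 in adult 1N. At P7 the 2N libraries lay between 2.84 and 3.05 and the 1N libraries between 4.56 and 5.53. The ratios are given as a description, with no test. Lama2 over Lama4 averaged 0.35 ± 0.0997 in E18.5 2N and 0.275 ± 0.0863 in E18.5 1N. The averages were 1.46 ± 0.126 in P7 2N and 1.36 ± 0.254 in P7 1N, and 2.61 ± 0.0704 in adult 2N and 2.45 ± 0.705 in adult 1N. Lamc1 over Lamb2 ran the other way and averaged 0.0495 ± 0.00688 in adult 2N and 0.0537 ± 0.00758 in adult 1N, against 0.949 ± 0.0701 in E18.5 2N and 0.929 ± 0.0469 in E18.5 1N. Among the low laminins, Lamb3 rose between E18.5 and P7 in 2N (1.24 ± 0.26, adjusted p = 0.0015) and 1N (2.3 ± 0.26, adjusted p = 9.64e-06), and Lama3 had no call in any comparison.

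Collagen VI, a beaded-filament collagen that links cells to fibres, split by chain. Col6a1 had 17.9, 49.2 and 47.5 CPM in E18.5 2N and 13.3, 11.3 and 21.5 CPM in E18.5 1N, 0.202, 1.24 and 1.63 CPM in P7 2N and 2.82, 3.03 and 2.38 CPM in P7 1N. In adults it had 2.6, 4.13 and 2.35 CPM in 2N and 3.29, 2.7 and 5.26 CPM in 1N. It fell between E18.5 and P7 in 2N (−5.47, adjusted p = 3.51e-06) and in 1N (−2.43, adjusted p = 0.00801). Between P7 and the adult it rose by 1.92 in 2N (adjusted p = 0.0168; 0.0688 without adult 2N replicate 2 and 0.0929 without P7 2N replicate 1). Col6a2 instead had 1.71, 2.53 and 2.12 CPM in adult 2N and 1.98, 3.8 and 3.0 CPM in adult 1N, against 22.3, 34.7 and 39.8 CPM in P7 2N and 69.6, 52.9 and 72 CPM in P7 1N. It fell in 2N (−3.88, adjusted p = 2.41e-08) and in 1N (−4.49, adjusted p = 4.15e-09). Col6a3 fell in 2N between E18.5 and P7 (−6.55 ± 1.08, adjusted p = 0.000219). It held only 0.00275% of the summed member CPM in P7 2N and 0.0026% in P7 1N, so few reads limit the size of its folds. The 1N fall of −2.83 was not called as reported. It was called after quantile normalization (adjusted p = 0.0073), with only the groups compared (0.0407) and without E18.5 2N replicate 1 (0.0448).

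Collagen XII coats the surface of fibrils. Col12a1 measured 6.68, 10.3 and 13.8 CPM in E18.5 2N and 8.12, 7.99 and 8.53 CPM in E18.5 1N, and at most 0.682 CPM in any P7 library. The fall at P7 was −4.63 ± 0.77 in 2N (adjusted p = 0.00024) and −4.73 ± 0.77 in 1N (adjusted p = 0.000357), with 25 reads over the P7 2N and 18 over the P7 1N libraries. In adults it had 2 reads in 2N and 3 in 1N. Col16a1 fell in 2N between E18.5 and P7 (−3.07 ± 0.66, adjusted p = 0.002) and in 1N between P7 and the adult (−2.23 ± 0.66, adjusted p = 0.0128; 0.0566 and 0.0512 without adult 1N replicate 2 or 3). Col13a1 had no call as reported.

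Of the lysyl oxidases, Loxl2 fell at each step in both classes. Its levels were 19.4, 40.9 and 44.8 CPM in E18.5 2N and 47, 38.6 and 44.2 CPM in E18.5 1N, 7.12, 8.0 and 5.69 CPM in P7 2N and 7.34, 7.55 and 10.5 CPM in P7 1N. Adult libraries had 0.768, 0.6 and 0.632 CPM in 2N and 0.329, 0.622 and 0.673 CPM in 1N. No library of a later age reached the lowest library of an earlier one. Between E18.5 and P7 the fall was −2.25 ± 0.32 in 2N (adjusted p = 6.48e-05) and −2.37 ± 0.32 in 1N (adjusted p = 7.02e-05). Between P7 and the adult it was −3.31 ± 0.32 in 2N (adjusted p = 7.04e-07) and −3.93 ± 0.32 in 1N (adjusted p = 8.54e-08). Loxl1, which acts on elastic fibres, had 0.252, 1.18 and 0.282 CPM in P7 2N and 0.912, 0.885 and 0.815 CPM in P7 1N, against 5.79, 5.58 and 4.29 CPM in E18.5 2N and 2.05, 3.17 and 2.62 CPM in E18.5 1N. It fell in 2N (−3.47 ± 0.5, adjusted p = 6.63e-05). Its 1N call (−1.54 ± 0.5, adjusted p = 0.0418) was lost without any 1 of the 6 libraries compared (0.057 to 0.135). Its rise in adult 2N (1.77 ± 0.5, adjusted p = 0.0104) was lost without P7 2N replicate 1 (0.0591) or 3 (0.0519). Lox itself was not called in any comparison as reported.

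The metalloproteinases were lower in adults than at P7 in 4 of 5 genes in each class, Mmp2 being the exception. Of all genes, 19.7% were called lower in 2N and 22.3% in 1N. Mmp14, the membrane-bound activator of pro-Mmp2, had 23.4, 37.1 and 33 CPM in E18.5 2N and 22.2, 29.8 and 26.4 CPM in E18.5 1N. At P7 it had 9.08, 13.8 and 8.9 CPM in 2N and 15.4, 18.9 and 16.4 CPM in 1N. The adult levels were 0.0591, 1.47 and 0.689 CPM in 2N and 0.549, 1.38 and 0.673 CPM in 1N. Its fall to the adult was −4.51 ± 0.68 in 2N (adjusted p = 6.72e-05) and −4.34 ± 0.68 in 1N (adjusted p = 8.12e-05). Mmp15, another membrane-bound enzyme, fell in adult 2N (−1.15, adjusted p = 0.00021) and in adult 1N (−0.65, adjusted p = 0.0134; 0.0567 without adult 1N replicate 2 and 0.0584 without P7 1N replicate 1). Its levels were 59.1, 90.0 and 83.9 CPM in E18.5 2N and 107, 93.8 and 102 CPM in E18.5 1N, 107, 182 and 107 CPM in P7 2N and 104, 83.2 and 91.2 CPM in P7 1N. In adults it had 54.6, 54.6 and 64.3 CPM in 2N and 65.3, 52.5 and 59.4 CPM in 1N. Mmp23 (−1.88 in 2N and −1.89 in 1N) and Mmp11 (−1.05 and −0.9) fell as well. Mmp2 rose in adult 2N (4.16 ± 0.74, adjusted p = 0.000295), to 1.24, 3.4 and 1.78 CPM, and had 1.48, 3.25 and 2.82 CPM in adult 1N (1.74 ± 0.74, adjusted p = 0.0691).

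The 4 Timp inhibitors took opposite courses. Timp2, the inhibitor that also helps Mmp14 to activate Mmp2, had 73.6, 129.7 and 157 CPM in E18.5 2N and 159, 170.0 and 188 CPM in E18.5 1N. At P7 the levels were 227, 231 and 243 CPM in 2N and 299, 274 and 258 CPM in 1N. Adult libraries had 68.2, 74.2 and 60.0 CPM in 2N and 80.3, 83.8 and 84.2 CPM in 1N. It rose to P7 in 2N (1.03 ± 0.19, adjusted p = 0.000637) and in 1N (0.68 ± 0.19, adjusted p = 0.0192). The 1N call was lost without E18.5 1N replicate 1 (0.071) or 2 (0.0594) or P7 1N replicate 1 (0.0734) or 2 (0.0524). To the adult it fell in 2N (−1.8, adjusted p = 1.91e-06) and in 1N (−1.74, adjusted p = 2.22e-06). Timp1, an injury-inducible inhibitor, had 1.18, 1.0 and 1.03 CPM in adult 2N and 1.65, 1.31 and 0.796 CPM in adult 1N, against 17.9, 18.4 and 15.9 CPM in P7 2N and 20.1, 29.1 and 28.9 CPM in P7 1N. Its fall was −3.98 ± 0.35 in 2N (adjusted p = 2.08e-07) and −4.38 ± 0.35 in 1N (adjusted p = 5.72e-08). Timp3, which is bound to the matrix, had 34.9, 132 and 155 CPM in E18.5 2N and 127, 142 and 168 CPM in E18.5 1N, 103, 111 and 152 CPM in P7 2N and 152, 121 and 160.3 CPM in P7 1N. The adult levels were 29.4, 39.6 and 44.2 CPM in 2N and 33.9, 43.1 and 51.1 CPM in 1N. It fell in adult 2N (−1.69, adjusted p = 0.00256) and in adult 1N (−1.77, adjusted p = 0.00166). Of its exon length 21.3% overlaps Syn3, and no source used here says whether reads were counted by strand.

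Timp4, the inhibitor best known from adult heart, rose where the other 3 fell. It had 1.97, 1.26 and 1.21 CPM in E18.5 2N and 0.128, 0.382 and 0.361 CPM in E18.5 1N, 0, 0 and 0 CPM in P7 2N and 0.0868, 0.0932 and 0.0582 CPM in P7 1N. Adult hearts gave 4.37, 10.7 and 9.07 CPM in 2N and 3.46, 7.4 and 4.41 CPM in 1N. The P7 2N libraries held no Timp4 read, so its level there was at least 25.2-fold lower than in E18.5 2N (94 reads), with a floor of 3 reads over the group. In adult 2N (392 reads) it was at least 142-fold higher than in P7 2N. In 1N the rise from P7 to the adult was 5.56 ± 0.53 (adjusted p = 4.74e-07). Between classes it was not called at E18.5 (2.36 ± 0.53, adjusted p = 0.0502), and at P7 5 reads in 1N against 0 in 2N allowed only a bound of at least 1.45-fold lower in 2N.

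The Adamts genes held both falls and rises. Between P7 and the adult 7 of 16 fell and 2 rose in 2N, against 19.7% and 17.3% of all genes. In 1N 10 fell and 2 rose, against 22.3% and 19.1%. Adamtsl2 had 2.74, 6.45 and 7.4 CPM in E18.5 2N and 3.55, 3.63 and 2.35 CPM in E18.5 1N. Adult libraries had 1.06, 0.533 and 0.402 CPM in 2N and 1.59, 0.553 and 0.796 CPM in 1N, so that its mean was highest at P7 in both classes. The rise to P7 was 1.64 ± 0.46 in 2N (adjusted p = 0.0108) and 4.71 ± 0.46 in 1N (adjusted p = 1.75e-06). The fall to the adult was −4.62 ± 0.46 in 2N (adjusted p = 7.63e-07) and −6.47 ± 0.46 in 1N (adjusted p = 1.66e-08). Adamts19 also fell, to 0.591, 0.733 and 0.689 CPM in adult 2N and 1.87, 0.415 and 0.673 CPM in adult 1N, against 18.9, 17.9 and 17.4 CPM in P7 2N and 56.7, 25 and 31.4 CPM in P7 1N (adjusted p 3.62e-07 in 2N and 6.07e-08 in 1N). Adamtsl1 was nearly lost in adults: 2 reads over the 2N libraries against 172 at P7, 79.0 times more at P7 (95% interval 21.6 to 658, counting error only). Over the adult 1N libraries it had 0 reads against 281 at P7, at least 74.5-fold lower.

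The 2 that rose were Adamtsl4 and Adamtsl5, which like the other Adamtsl proteins lack the protease domain. Adamtsl5 stood at 194, 183 and 189 CPM in adult 2N and 200.1, 181 and 160.1 CPM in adult 1N, against 61.8, 67 and 60.3 CPM in P7 2N and 48.4, 64.9 and 60.2 CPM in P7 1N. The Adamtsl5 rise was 1.58 ± 0.14 in 2N (adjusted p = 3.38e-07) and 1.65 ± 0.14 in 1N (adjusted p = 1.71e-07). Adamtsl4 rose by 1.55 in 2N (adjusted p = 1.26e-05) and by 1.34 in 1N (adjusted p = 4.44e-05). Adamts1, a protease of versican and aggrecan, was abundant, with 241, 307 and 275 CPM in adult 2N and 299.9, 204 and 224 CPM in adult 1N. It was uncalled in every comparison as reported. With only the groups compared, its rise between P7 and the adult was called in 2N (1.22, adjusted p = 0.000186) and in 1N (0.7, adjusted p = 0.0208). Without E18.5 2N replicate 1 the rise was also called (adjusted p 0.002 in 2N and 0.0483 in 1N). At E18.5 its lowest library was 2N replicate 1, at 18.9 CPM, and its highest 2N replicate 3, at 210 CPM. Adamts7 rose to P7 in 2N (1.6) and 1N (1.87), Adamts9 fell in both (−1.08 and −1.3). Adamts8 fell to the adult (−3.39 in 2N and −2.75 in 1N; 10.6% of its exon length overlaps another gene).

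Calls near the threshold among the remaining age changes rested on single libraries. In 2N between E18.5 and P7 these were Adamts15 (0.0564 without P7 2N replicate 2 and 0.0556 without replicate 3), Adamts6, Adamtsl1 and Adamtsl3. Adamts6 was lost without E18.5 2N replicate 2 or 3 or any P7 2N library (highest 0.143, without E18.5 2N replicate 3). Adamtsl1 was lost without E18.5 2N replicate 1 or 2 or P7 2N replicate 1 or 3 (highest 0.0929). Adamtsl3 was lost without E18.5 2N replicate 3 or any P7 2N library (highest 0.119). In 1N, Fbln5 had 115 reads at P7, against 2 at E18.5, and lost its call without E18.5 1N replicate 2 (0.0639) or 3 (0.0565) or P7 1N replicate 3 (0.0579). Between P7 and adult 1N, Adamts3 lost its call without adult 1N replicate 2 (0.164) or P7 1N replicate 1 (0.105) or 2 (0.0828). Col12a1 lost its call without adult 1N replicate 1 (0.21) or 2 (0.0549) or any P7 1N library (0.0715 to 0.105). In 2N, the rise of Fbln1 to 43.7, 52.3 and 83.7 CPM in adults (0.93 ± 0.31, adjusted p = 0.0272) was lost without adult 2N replicate 3 (0.141) or P7 2N replicate 1 (0.063) or 2 (0.109).

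Genes that act with the members were followed in lists. For P7 against E18.5, 18.2% of all genes were called higher and 17.7% lower in 2N, and 10.7% and 7.84% in 1N. For adult against P7 the shares were 17.3% and 19.7% in 2N, and 19.1% and 22.3% in 1N, and several of the counts that follow lie near them. Of 23 enzymes and chaperones of collagen folding, 20 were measured, and none was called between 2N and 1N at any age. Between P7 and the adult, 5 rose and 6 fell in 2N, and 3 rose and 7 fell in 1N. P4ha3, a prolyl hydroxylase subunit, fell in 2N (−7.24, adjusted p = 5.17e-08) and in 1N (−6.82, adjusted p = 7.59e-08). P4ha2, another subunit, rose by 1.6 in 2N (adjusted p = 5.88e-07) and by 1.37 in 1N (adjusted p = 2.59e-06). Pcolce, which aids the trimming of procollagen, fell in 2N (−2.37) and in 1N (−2.04). Between E18.5 and P7, 4 rose and 6 fell in 2N, and 4 rose and 3 fell in 1N, with Fkbp10 higher in both (1.43 in 2N and 1.66 in 1N).

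Of 10 measured basement membrane partners none was called between the classes at any age. Nid1, the nidogen that links laminin to type IV collagen, fell between E18.5 and P7 in 2N (−5.48, adjusted p = 9.37e-07) and in 1N (−4.45, adjusted p = 1.56e-05). It rose to the adult in both (2.84 in 2N and 1.82 in 1N), the 1N call being lost without P7 1N replicate 2 (adjusted p = 0.0581). Ntn4, a laminin-related netrin, fell to the adult in 2N (−2.78) and in 1N (−2.18). In all, 1 partner rose and 4 fell in adult 2N, and 1 rose and 5 fell in adult 1N; for P7 against E18.5 the counts were 2 and 3 in 2N, and 1 and 2 in 1N.

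Among 17 measured matrix receptors, Itga7, the main laminin-binding integrin chain of muscle, was the one called between classes at E18.5. It had 9.48, 16 and 24 CPM in 2N, against 33.1, 32 and 30.2 CPM in 1N (log2 fold change −1.04 ± 0.23, limma adjusted p = 0.0485). That call was lost without any 1 of the E18.5 libraries except 2N replicate 3 (0.0579 to 0.15) and with the replicate block at P7 and in adults (0.183). At P7 it had 229, 263 and 289.8 CPM in 2N and 338, 298 and 271 CPM in 1N. The rise against E18.5 was 4.08 ± 0.23 in 2N (adjusted p = 3.98e-09) and 3.25 ± 0.23 in 1N (adjusted p = 7.81e-08). Sdc4, a syndecan, was the receptor called lower in P7 2N (−1.81 ± 0.36, adjusted p = 0.0118), a call lost without P7 1N replicate 1 (0.0797) or 2 (0.0633) or P7 2N replicate 3 (0.0628). Between E18.5 and P7, 5 receptors rose and 3 fell in 2N, and 3 rose and 2 fell in 1N. To the adult, 1 receptor rose and 8 fell in 2N, and 1 rose and 9 fell in 1N, with the collagen receptor Ddr1 lower in both (−1.36 in 2N and −1.76 in 1N).

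Of 28 measured other matrix glycoproteins and proteoglycans, 4 were higher in 2N at E18.5 and 4 lower in 2N at P7, against 0.739% and 2.06% of all genes. Igfbp7 was in both sets. Its log2 fold change was 3.43 ± 0.42 at E18.5 (adjusted p = 0.000692) and −2.42 ± 0.42 at P7 (adjusted p = 0.00429). The other 3 at E18.5 were the proteoglycans Aspn (2.46) and Prelp (3.59) and the microfibril protein Mfap4 (3.7). At P7 they were Thbs4 (−1.47), Sparcl1 (−1.79) and Ecm1 (−1.37). Prelp was lost without E18.5 1N replicate 2 (adjusted p = 0.0891) or 2N replicate 2 (0.0684) and with the replicate block at P7 and in adults (0.0794). Ecm1 was lost without any 1 of the 6 P7 libraries (0.0724 to 0.157) and with that block (0.0952). With age, 3 of the 28 rose and 15 fell in 2N at P7 and 8 rose and 9 fell in adult 2N; in 1N, 8 rose and 3 fell at P7 and 6 rose and 11 fell in adults. The class difference changed between the ages for 8 of the 28, all downward, among them Eln, elastin (−4.64 ± 0.85, adjusted p = 0.00892). Of 15 measured genes of TGF-beta signalling and latency none was called between the classes at any single age. Eng (−4.21 ± 1.01, adjusted p = 0.0371) and Ltbp4 (−4.45 ± 1.1, adjusted p = 0.0435) were called for the change of the difference from E18.5 to P7. Both calls were lost without single libraries, the Eng call without 9 of the 12 (highest adjusted p 0.101, without P7 1N replicate 1) and the Ltbp4 call without 7 (highest 0.121, without the same library). With age, 2 of these genes rose and 5 fell in 2N at P7 and 3 rose and 1 fell in adult 2N; in 1N, 3 rose and 1 fell at P7 and 3 rose and 3 fell in adults.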

How the data were processed

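RNA was measured in 18 libraries of sorted mouse cardiomyocytes. Per the labels' protocols, cells were sorted into Trizol-LS, RNeasy micro columns served to purify the RNA, and the libraries came from a TruSeq stranded mRNA kit with Clontech SMARTer amplification. STAR, limma and genome build mm9 were used, per the submitters' processing notes, which give no versions. No source used here names the read counter, the annotation or the gene filter.

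The values deposited by the authors are log2 values, in a table for each library that lists the same 12048 genes. In each library these had the form log2 of a whole count plus 0.5, times a library factor, plus a constant. Counts recovered from that form lay within 9.66e-09 of whole numbers, 100% of them within 0.001. CPM were computed from these counts and the library factors, and levels per kilobase with GENCODE M21 exon lengths. Symbols came from GENCODE M21 (11927 of 12048 matched, 121 did not). 0 sample columns were left unused. No 2 replicates agreed within counting error (chi-square over its degrees of freedom 13.5 to 254).

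Tests used limma 3.58.1 in R 4.3.3, with 1 linear model of 6 group means on the deposited log2 values, moderated variances with a trend and 12 residual degrees of freedom. They were two-sided, with Benjamini-Hochberg adjustment over 12048 genes in each of 9 contrasts and a threshold of 0.05. On this scale the size of a fold change is uncertain for genes with few reads. The offset added to each count makes such a fold smaller. A single library with far fewer reads than the rest of its group can make it larger, since logs are averaged. The foreseen count models were not run on the recovered counts, where voom stood in for them, and the pseudocount alternative did not apply to log2 values. Where a group had 0 reads, folds used a floor of 3 reads over the group; 95% intervals of read ratios are exact and, since amplified reads are not independent molecules, cover counting error only. The fit was tested on simulated data.

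The values of 1 laminin chain are not reported here, though it is counted. Members, lists and tests were chosen with earlier results of these data known. Values per library are given for a fixed set of main matrix genes and for up to 8 members per direction and comparison with the smallest adjusted p, and up to 3 genes of each accompanying list; further genes are named to complete a list. The deviations of same-numbered 2N and 1N libraries from their group means correlated over genes at 0.182 to 0.236 at P7 and 0.261 to 0.327 in adults, above 0.1 in every pair, but at 0.054 to 0.158 at E18.5. The numbers were therefore taken to pair libraries at P7 and in adults. At E18.5, too, each same-numbered correlation was above the best differently numbered one (−0.064 to 0.002), so those libraries may also be paired. The reported class p-values come from the fit without a block, and the blocks are given as alternatives. Alternatives were a replicate block, quantile normalization, only the groups compared, the upper 75% of genes by mean, voom and leaving out each library. Promoter windows came from RefSeq (GRCm38.p6); the processing notes name mm9, of which no coordinates are printed.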

Additional observations from a re-analysis of the deposited data

Results flagged for a closer look

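The 2N over 1N difference was itself different at P7 and at E18.5 for 17 members in a direct test, all below 0, against 2.1% of all genes. The log2 value given is the difference at P7 minus that at E18.5. Dcn had −4.97, Lum −5.56 and Bgn −5.38, and the collagen chains Col3a1, Col5a1 and Col5a2 had −3.83, −4.21 and −2.77. The adhesion protein Postn had −2.5, Sparc −1.45 and Mgp −3.79. For the fibulins the values were −2.13 for Fbln1, −6.39 for Fbln2 and −8.84 for Fbln5, the Fbln5 value resting on 2 reads in E18.5 1N and on a 2N library with 0. Among basement membrane collagens, Col4a3 had −3.37 and Col4a4 −5.89. The protease Mmp2 had −6.07, the inhibitor Timp4 −4.25 and Adamtsl2 −3.07. The Timp4 value rests on 0 reads in P7 2N and 5 in P7 1N, so its size is not fixed by the data. In the same test 6 of 16 endothelial genes were called below 0 (median −3.03), 3 of 7 leukocyte genes (−3.79) and 2 of 8 fibroblast genes (−2.43), and their part in these 17 results was not tested.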

How the results depend on the processing

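Across all members called in the 9 comparisons and all alternatives, 2184 repeats of a call were made, of which 1933 kept the call, 251 lost it and 0 reversed its direction. Leaving out 1 library gave 4 to 14 called members for 2N against 1N at E18.5 (9 as reported), 3 to 11 at P7 (7), 0 to 0 in adults (0), 20 to 32 for P7 against E18.5 in 1N (24), 38 to 47 in 2N (42), 39 to 49 for adult against P7 in 1N (44), 39 to 48 in 2N (42), 8 to 24 for the change of the class difference between E18.5 and P7 (17) and 0 to 0 for that between P7 and the adult (0). Where a library was left out, its group kept 2. Fitted on only the groups compared, with fewer libraries to estimate the spread, the counts were 0 for E18.5, 12 for P7, 40 for P7 against E18.5 in 1N and 9 for the change of the class difference to P7. Among the upper 75% of genes by mean, which held only part of the members (30 of 68), the counts were 2 for E18.5, 3 for P7, 10 and 17 for P7 against E18.5 in 1N and 2N, 21 and 23 for adult against P7 in 1N and 2N, and 4 for the change to P7; fewer members were tested. The replicate block at P7 and in adults, chosen after seeing the data, gave 5 for E18.5 and 11 for the change to P7, and changed no other count among the class comparisons by over 1.5 times. A replicate block at every age gave 8 for E18.5, 9 for P7, 0 for adults, 15 for the change to P7 and 1 for the change to the adult, and a block by number across ages, where numbers did not pair libraries (r −0.128 to 0.136), gave 25, 43, 46 and 41 for the age comparisons. Voom, also chosen after seeing the data, gave 13, 6 and 0 for E18.5, P7 and adults, and lost Fbln2 (adjusted p = 0.314) and Mgp (0.0832) at P7. Quantile normalization gave 10, 7 and 0, moved the median of all genes by less than 0.1 and turned the sign of no called member, but turned 7 medians of sub-lists. For adult against P7 in 1N these were −0.82 for other collagens (0.29 after it), −0.45 for single matrix genes (0.2) and −0.04 for lysyl oxidases (0.88). For P7 against E18.5 in 1N it was 0.0027 for single matrix genes (−0.43). The rest were the adult class medians of basement membrane (−0.03, then 0.02) and fibrillar collagens (−0.07, then 0.02) and the change to P7 of basement membrane collagens (0.09, then −0.07). Reads are few for Col5a3, Fbln5, Timp4, Col4a4, Col4a6, Col12a1, Adamtsl1 and Lox in at least 1 group, and there depth limits the size of a fold. Mmp2 in P7 2N and Col6a3 in both P7 groups were also near the detection limit, which makes the size of their folds against those groups uncertain. The cause of the other changes was not tested. The planned count models were not run, voom on the recovered counts standing in for them, and the pseudocount applied only to other units.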

Other observations

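Ranked by level per kilobase of exon within a group, Sparc led the members at E18.5 and P7 in both classes, with 128 ± 21.9 CPM per kb in E18.5 2N, 97.5 ± 4.65 in E18.5 1N, 99.3 ± 13.3 in P7 2N and 209 ± 25.7 in P7 1N (SD, n = 3). The next members were Col4a1 in E18.5 2N (40.6 ± 17 CPM per kb), Timp2 in E18.5 1N (44.2 ± 3.85) and Lamb2 at P7 (65.7 ± 3.93 in 2N and 95.6 ± 29.3 in 1N). Col3a1 was sixth in E18.5 2N, at 25.8 ± 13.4 CPM per kb, and was not among the leading 6 in any other group. In adults Lamb2 led and was followed by the proteases and protease-like genes Adamts1 (51.7 ± 6.21 in 2N and 45.7 ± 9.58 in 1N) and Adamtsl5 (39.97 ± 1.14 in 2N and 38.2 ± 4.24 in 1N). Neighbours in these orders often differed by less than their SD, as did Col4a1 and Col4a2 in every group.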
